A study of Mus musculus with 25 samples.

Results

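The change of the mammary transcriptome from 1 day to 60 days after weaning was examined in cabergoline-treated mice. Cabergoline activates dopamine receptors of the pituitary and thereby halts prolactin secretion. The comparison held 10 of the 25 RNA-seq libraries of the series, 5 from cabergoline-treated mice at 60 days after weaning and 5 from cabergoline-treated mice at 1 day, and 16457 of the 34866 genes in the deposited table were tested. All mice were Brca1/P53-deficient females. In this model both tumor suppressor genes are deleted by Cre under control of the K14 promoter, which is active in the basal epithelial lineage. Per the study's methods, not all mammary cells carry the deletions. The treated mice had gone through 2 pregnancies and received cabergoline on the day of the second weaning, at a dose that the labels give as 0.2 mg per kg. The study's methods state a slightly higher dose. The mice at 60 days were a separate set from those at 1 day, so that time after weaning and set of mice cannot be told apart. The untreated multiparous mice at 1 day and 60 days (5 libraries each) and the age-matched nulliparous mice (5 libraries) carried the same genotype and are used below only where they bear on the treated mice. The material was organoids, the epithelium-enriched fragments that remain after enzymatic digestion of the gland, and ribosomal RNA had been depleted.

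In lactation, prolactin acts through its receptor, the kinase Jak2 and the transcription factor Stat5 to keep the alveolar epithelium producing milk proteins, lactose and fat. After weaning the gland involutes. In an early phase Stat3 is activated, lysosomal proteases and acute phase genes are induced and secretory cells begin to die, and in a later phase the matrix is remodelled, the alveoli are lost and fat and stroma refill the gland. By several weeks after weaning the mouse gland again consists mainly of ducts in a fat pad.

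A single short transcript and the milk proteins filled most of each library at 1 day. The processed pseudogene Gm12895 took 28 to 46.4% of all TPM, the share of transcripts that each gene holds after correction for its length, at 1 day and 0 to 9.83% at 60 days, and the 17 measured genes of a milk protein list took 14.5 to 35.3% and 0.0948 to 0.258%. TPM in each library add up to the same total. As a consequence, every other gene has a lower TPM where these transcripts are abundant. All values below are therefore TPM divided by a scaling factor per library, the median ratio over 10915 genes, which ran from 0.369 to 0.756 at 1 day and from 1.62 to 1.98 at 60 days. Scaled Gm12895 was 1260000, 418000, 958000, 473000 and 589000 at 1 day and 59600, 15100, 6270, 0 and 17000 at 60 days, a log2 fold change of -8.08 ± 2.78 SE, adjusted p = 0.0613. This change missed the threshold over all libraries and passed it with a pseudocount of 5 (adjusted p = 0.0465), on TPM as deposited, with a filter of 5 TPM, in the fit of all 25 libraries (adjusted p = 0.0212), with library quality weights, without 60-day replicate 1 (-9.20, adjusted p = 0.0449) and without 60-day replicates 3 and 4 (-4.75). With single libraries left out it ran from -9.20 to -5.25. The groups did not overlap, and 60-day replicate 4 was listed at 0. Gm12895 differs by 4 single-base edits from a second pseudogene, Gm12896 (chr4:122122847-122123072), with a longest shared run of 224 bases. Reads can be divided between both copies, and the value of each is uncertain. The transcript is printed because it takes more of the 1-day libraries than any other. It lies on the plus strand at chr4:122455210-122455435 of GRCm38 and was read from GENCODE, in lower case with no part marked.
Gm12895: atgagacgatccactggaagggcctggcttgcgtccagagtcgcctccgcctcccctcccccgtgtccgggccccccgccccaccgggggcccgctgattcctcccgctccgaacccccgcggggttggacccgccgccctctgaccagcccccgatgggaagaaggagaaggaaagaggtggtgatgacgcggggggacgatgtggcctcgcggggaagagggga

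The libraries held epithelium, stroma and blood in unequal measure, and some stood apart. Genes at 1 TPM or more numbered 12897 to 15610 at 1 day and 14469 to 18298 at 60 days. The lowest 60-day count was that of replicate 4, where Xkrx, which encodes a membrane protein of the Xk family, alone took 8.82% of the TPM. The median correlation of this library with the others of its group was 0.74, against 0.82 for replicate 3 and 0.88 to 0.9 for the other 3. At 1 day, replicates 1 and 3 were low in lymphocyte genes: the summed scaled TPM of 25 T and NK cell markers was 45.4 and 102 there, and 1010 to 1870 in the other 3. Mitochondrially encoded genes took 1.27 to 2.6% at 1 day and 3.74 to 13.3% at 60 days, and hemoglobin genes 0.0723 to 0.16% and 0.367 to 3.67%. The epithelial label was checked against keratin and junction genes of the luminal epithelium, whose summed scaled TPM was 803 to 2620 at 1 day and 108 to 369 at 60 days. Epcam was at 1.29 or above in every 60-day library, so that epithelial RNA was found at both times, at a lower level at 60 days. In such bulk samples, fewer epithelial cells and less RNA per cell cannot be told apart. Nothing in the sources ties a replicate number to a shared animal, and the legends of the study count the samples as mice. They give 4 cabergoline-treated mice at 1 day and 4 untreated multiparous mice at 60 days, where the deposited table holds 5 libraries each. Which library the authors left out is not given in the sources used here.

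Milk and epithelial genes gave the largest falls, and genes of vessels, nerves and blood were among the largest rises. Of the 16457 genes tested with limma, 3514 (21.4%) passed an adjusted p of 0.05, 1501 of them higher at 60 days (9.12%) and 2013 lower (12.2%). At an unadjusted p of 0.05 the count was 6199. Among the called genes, 1470 fell by a log2 fold change of 1 or more and 703 rose by as much, and 61 were at -5 or below while 4 were at 5 or above. The 5 treated libraries of each time did not overlap for 2576 called genes, 1054 higher and 1522 lower at 60 days, beside 3233 of all genes tested (19.6%). Where a gene reached 1 TPM only in the 5 libraries of 1 time, the filter itself sets its TPM apart. Its separation is then no further support. Such genes include Cidea, Clca2, Cyp24a1, Lao1, Lep, Saa1, Saa2, Rps6-ps4, Rpl17-ps3 and the scaffold copy of Ccl21a. The median change over all tested genes was 0.08 on the log2 scale, and each change below is relative to the scaling. On TPM as deposited the median of all genes was 1.42 and 96.2% of 12345 called genes were higher, against 42.7% after scaling. Genes with a small negative change after scaling have a positive one on TPM as deposited, as named beside the gene. Fold changes are on the log2(scaled TPM + 1) scale, which understates the change of low genes, and those of genes at or near 0 in 1 group depend on the pseudocount. Below, a bracket after a gene's levels holds its log2 fold change at 60 days minus 1 day with the SE and the adjusted p of limma. Without 1-day replicates 1 and 3 only 829 genes were called (137 higher and 692 lower), and 118 of the called genes, all lower, were no longer tested because fewer than 5 libraries reached 1 TPM. Without 60-day replicates 3 and 4 the count was 6048 (2932 higher and 3116 lower). Of the 49 gene lists described below 31 had at least 1 gene called higher and 37 at least 1 called lower, 8 and 30 without 1-day replicates 1 and 3, and 32 and 41 without 60-day replicates 3 and 4. The counts of each list are to be read beside the shares over all genes, 9.12% higher and 12.2% lower. Counts of list members above 0 are to be read beside 8998 of all genes tested above 0 and 7459 below. Members of a list share libraries and are not independent.

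**Figure D1:**
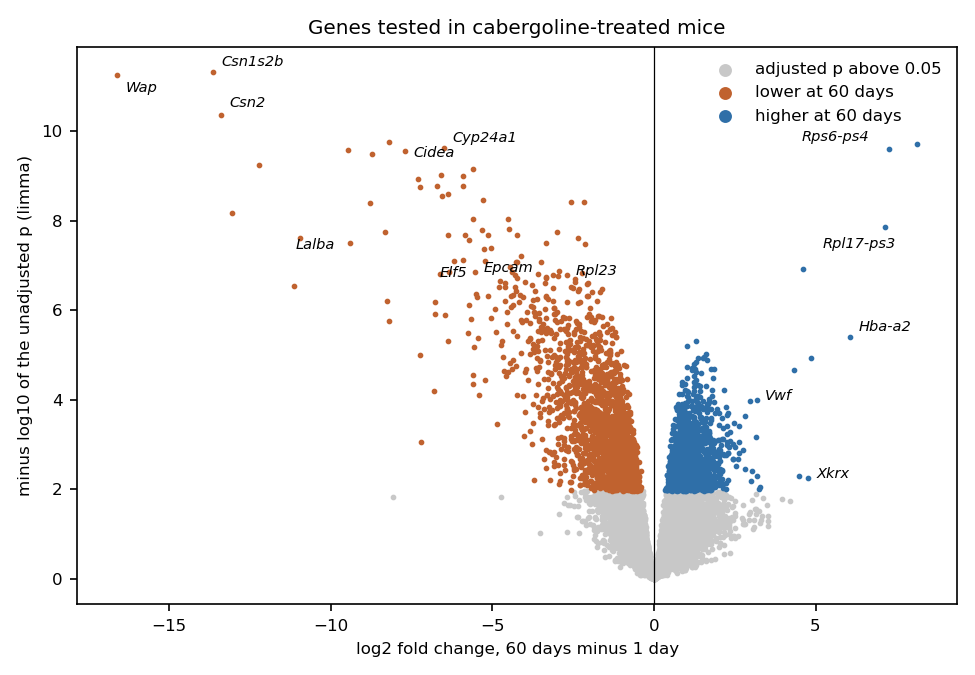
Each point is a gene tested in the cabergoline-treated mice, with the log2 fold change at 60 days minus 1 day on the x axis and minus log10 of the unadjusted limma p on the y axis, and colours mark the 1501 genes called higher, the 2013 called lower and those not called. The lower side reaches -16.60 (Wap), further than the higher side, where 4 called genes are at 5 or above.

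Milk protein genes fell from the highest levels in the libraries to low ones. All 17 measured genes of the milk protein list were lower at 60 days, 16 of them past the threshold, with a median log2 fold change of -8.26 (range -16.60 to -2.47) beside 0.08 over all genes, and a median of -6.91 on TPM as deposited. The background for a lower call was 12.2%. Wap (whey acidic protein, the major whey protein of mouse milk, chr11:6635482-6638637) had scaled TPM of 357000, 226000, 248000, 192000 and 95200 at 1 day and 4.06, 0.862, 2.43, 0 and 0.161 at 60 days, in order of replicates 1 to 5 here and below. It had the highest mean TPM of the protein-coding genes at 1 day and was at or under 4.06 in every 60-day library, a change of -16.60 ± 0.50 SE, adjusted p = 4.66e-08. The caseins, which carry calcium phosphate in milk, lie in a cluster on chromosome 5. Csn2 (beta-casein, chr5:87692624-87699630) was 135000, 77200, 94800, 47900 and 23700 at 1 day and 1.94, 7.96, 8.38, 6.03 and 3.59 at 60 days (-13.39 ± 0.49 SE, adjusted p = 2.47e-07). Csn1s1 (alpha-s1-casein, chr5:87666208-87682578) was 132000, 82600, 96700, 68400 and 27400 at 1 day and 1.78, 44.5, 159, 18.9 and 88.2 at 60 days (-11.12 ± 0.97 SE, adjusted p = 6.29e-05). No 60-day library came near the 1-day range for either gene, and Csn1s1 kept a level of up to 159 at 60 days where Csn2 was at or under 8.38. The other caseins of the cluster changed by -13.04 ± 0.78 (Csn1s2a), -13.63 ± 0.41 (Csn1s2b) and -10.94 ± 0.74 (Csn3, kappa-casein, which stabilises the micelle), with adjusted p from 4.66e-08 to 1.06e-05. Further milk components moved likewise. Wfdc18, a small secreted protein related to Wap, changed by -12.23. The milk enzyme Lao1, an L-amino acid oxidase, changed by -8.73 and the bile salt-activated lipase Cel by -8.26, with no overlap between the groups. For Lao1 the filter alone sets the groups apart. Among 1-day libraries replicate 5 had the lowest value of each of these 9 genes. Nulliparous libraries held 28.6 to 307 scaled TPM of Csn2 and 0.327 to 11.9 of Wap.

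The falls of the milk protein genes were mostly deeper than those of epithelial markers: 16 of the 17 had a lower log2 fold change than the median of the luminal keratin and junction list (-3.20), and 11 were below its lowest member (-5.76). The difference between the lists was not tested. On the log2(scaled TPM + 1) scale a gene can fall no further than its 1-day level allows. At 1 day the milk protein list summed to 192000 to 859000 scaled TPM and the luminal list to 803 to 2620. A deeper fall and a higher starting level therefore cannot be told apart here. Stat5 binds palindromes of the form TTCNNNGAA, and the 250 bases before the start sites of 4 milk genes are printed to show where this motif stands in genes with deep falls. The windows are RefSeq sequence on GRCm38.p6, each in the direction of its gene, in lower case with every TTCNNNGAA in capitals. The motif reads the same on both strands. The start sites are those of RefSeq. That of Csn2, at base 87699425, lies inside the gene as annotated by GENCODE, where 1 longer transcript starts upstream, so that most of its window overlaps this transcript. The start site of Lalba, at base 98482683, also lies inside its annotated gene. The part of the Lalba window nearest the start site is therefore within that gene.
Csn1s1, chr5:87665958-87666207, plus strand: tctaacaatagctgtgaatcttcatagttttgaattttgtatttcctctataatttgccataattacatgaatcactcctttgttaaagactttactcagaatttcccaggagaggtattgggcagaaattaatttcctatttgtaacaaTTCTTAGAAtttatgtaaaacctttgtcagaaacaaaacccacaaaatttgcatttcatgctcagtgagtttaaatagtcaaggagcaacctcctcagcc
Csn2, chr5:87699426-87699675, minus strand: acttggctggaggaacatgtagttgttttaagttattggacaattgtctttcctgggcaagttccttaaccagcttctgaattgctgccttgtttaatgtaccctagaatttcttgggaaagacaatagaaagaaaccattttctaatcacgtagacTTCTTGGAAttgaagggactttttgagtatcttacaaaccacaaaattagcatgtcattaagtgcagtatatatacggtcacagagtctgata
Lalba, chr15:98482684-98482933, minus strand: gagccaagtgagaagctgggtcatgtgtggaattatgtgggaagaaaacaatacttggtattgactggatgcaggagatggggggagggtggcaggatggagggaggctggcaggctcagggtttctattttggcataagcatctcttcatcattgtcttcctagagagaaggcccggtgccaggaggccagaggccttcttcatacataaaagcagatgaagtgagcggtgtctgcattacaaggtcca
Wap, chr11:6638650-6638899, minus strand: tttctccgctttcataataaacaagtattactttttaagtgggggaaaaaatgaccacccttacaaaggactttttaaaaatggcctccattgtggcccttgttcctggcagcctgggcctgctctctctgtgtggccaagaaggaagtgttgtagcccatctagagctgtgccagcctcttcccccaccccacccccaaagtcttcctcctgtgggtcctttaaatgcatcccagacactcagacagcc
The windows of Csn1s1 and Csn2 held 1 motif each, 91 and 84 bases before the RefSeq start sites, and those of Lalba and Wap held none. By symbol, 14 of the 17 milk genes had a window, and 3 of these held the motif (21.4%: Csn1s1, Csn2 and Glycam1). Of 27025 genes with a window 8.13% held it, of tested genes 7.39%, of genes called lower 6.79% (99 of 1459) and of genes called higher 8.09% (86 of 1063). The share among called genes of either direction was thus near that of all genes.

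**Figure D2:**
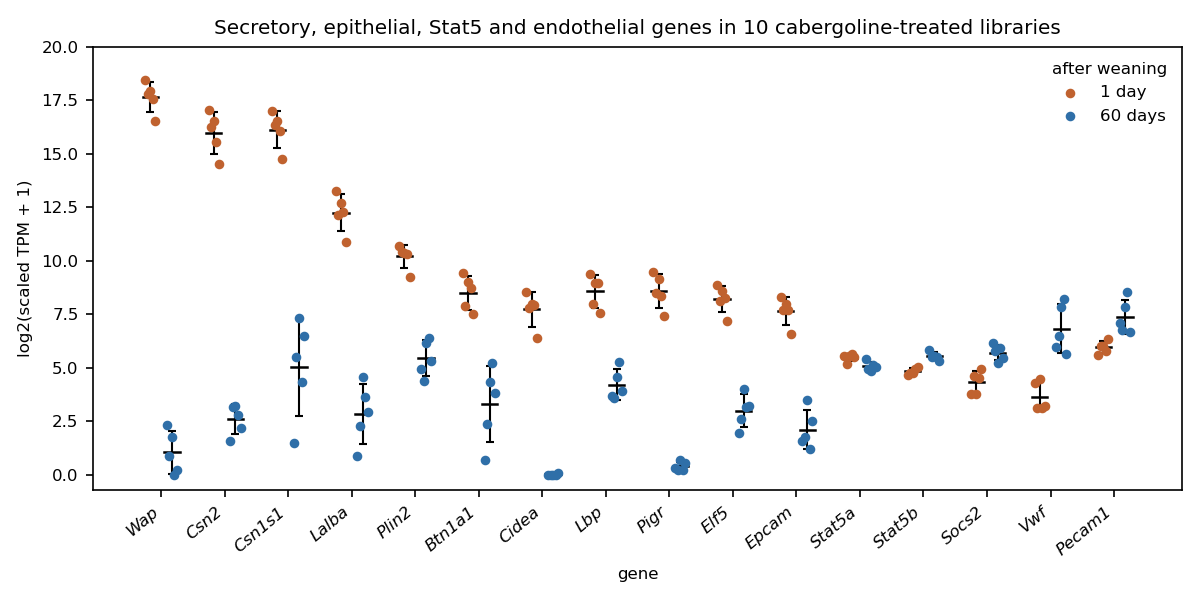
The y axis is log2(scaled TPM + 1) and the x axis lists 16 genes, with a point for each of the 5 cabergoline-treated libraries at 1 day and the 5 at 60 days and lines for the mean and SD. The milk, lipid droplet and epithelial genes are lower in every 60-day library, Stat5b, Socs2, Vwf and Pecam1 are higher in every one, and Stat5a overlaps.

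Both genes of lactose synthase fell. Lalba (alpha-lactalbumin, chr15:98480400-98482721), the regulatory subunit of lactose synthase, was 9790, 4560, 6740, 4910 and 1910 at 1 day and 0.821, 3.84, 23.1, 11.3 and 6.6 at 60 days (-9.40 ± 0.66 SE, adjusted p = 1.28e-05). B4galt1, the galactosyltransferase that Lalba directs to glucose, was 253, 127, 225, 159 and 102 at 1 day and 37.1, 41, 38, 26.4 and 33 at 60 days (-2.20 ± 0.25 SE, adjusted p = 3.27e-04). Slc35a2, which carries UDP-galactose into the Golgi, changed by -0.97 ± 0.23 SE, adjusted p = 0.0135. All 5 libraries of each time were apart for Lalba and B4galt1, while Slc35a2 overlapped and its change was positive on TPM as deposited. The remaining 6 of 9 list members, among them general sugar enzymes, were not called, and the list median was -0.66 (0.81 on TPM as deposited).

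Many genes of milk fat secretion fell too. Of 15 measured lipid droplet genes 9 were called lower and none higher, with a median of -1.42 (0.14 on TPM as deposited). With 1 library left out the count ran from 5 without 1-day replicate 1 to 12 without 60-day replicate 3. Plin2, which coats cytoplasmic lipid droplets, was 1630, 1370, 1330, 1260 and 611 at 1 day and 30, 19.9, 71.2, 82.2 and 39.1 at 60 days (-4.76 ± 0.41 SE, adjusted p = 5.41e-05). Btn1a1, butyrophilin of the milk fat globule membrane, was 681, 233, 509, 421 and 181 at 1 day and 0.632, 4.14, 19.5, 36 and 13.1 at 60 days (-5.21 ± 0.77 SE, adjusted p = 0.00135). Cidea, a droplet protein that works with these in milk fat secretion, was 374, 223, 248, 243 and 82.5 at 1 day and 0, 0, 0, 0 and 0.053 at 60 days, and 4 of the 5 libraries at 60 days listed it at 0 (-7.71 ± 0.34 SE, adjusted p = 5.02e-07). The groups were apart for all 3 genes, for Cidea already by the filter, and 1-day replicate 5 was again the lowest of its group. Fatty acid synthesis gave 6 of 16 genes lower and none higher (median -1.02, 0.50 on TPM as deposited). Olah, the thioesterase that releases the medium-chain fatty acids of milk, changed by -5.85 ± 0.39, the NADPH source Me1 by -3.64 ± 0.58, Thrsp, a lipogenic regulator counted with the droplet genes, by -3.83 ± 0.48, the desaturase Fads1 by -1.48 ± 0.28 and the citrate carrier Slc25a1 by -1.39 ± 0.26, with adjusted p from 9.60e-06 to 0.0055. For Fads1 and Slc25a1 the change was positive on TPM as deposited. Cholesterol synthesis had 6 of 21 genes lower and 1 higher and a median of -0.26 (1.22 on TPM as deposited): Sqle changed by -1.34 ± 0.21, Sc5d by -1.15 ± 0.19, Ebp by -1.04 ± 0.15 and Pmvk by -0.94 ± 0.19, all with a positive change on TPM as deposited.

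Genes of ion transport fell in part. Of 17 tested epithelial ion transport genes 9 were lower and 1 higher (median -1.38), and 4 were lower without 1-day replicates 1 and 3. Slc39a8, an importer of zinc and manganese, was 554, 421, 414, 467 and 151 at 1 day and 2.46, 2.27, 3.7, 1.24 and 3.67 at 60 days (-6.71 ± 0.35 SE, adjusted p = 1.59e-06). The vesicular zinc exporter Slc30a2 changed by -3.09 ± 0.31, the potassium channel Kcnk1 by -4.37 ± 0.40 and Clca2 by -3.60 ± 0.40. The lowest 1-day library was above the highest 60-day library for all 4, for Clca2 already by the filter on low values. In the calcium list 3 of 20 tested genes were lower and 2 higher, near the shares over all genes, and the median was 0.19. Atp2c2, which pumps calcium into Golgi vesicles, was 198, 87.8, 195, 117 and 66.9 at 1 day and 0.081, 0.169, 0.792, 0 and 0.407 at 60 days (-6.60 ± 0.33 SE, adjusted p = 1.19e-06). Atp2b2, the pump that moves calcium across the apical membrane into milk, changed by -2.08 ± 0.36 SE, adjusted p = 0.00315. The store-operated channel Orai1 fell (-1.79 ± 0.22 SE, adjusted p = 5.28e-04) while Stim1, the sensor that opens it, rose from 19.2 to 32.2 scaled TPM at 1 day to 55.7 to 98.5 at 60 days (1.45 ± 0.20 SE, adjusted p = 0.00104). Among 15 tested amino acid transporters 2 were lower, Slc3a2 (the heavy chain of several exchangers, -2.32 ± 0.21) and Slc1a4 (-1.95 ± 0.34), and 4 were higher (2 without 1-day replicate 1 to 5 without 60-day replicate 3), with Slc6a6, the taurine transporter, at 1.30 ± 0.17 and Slc36a2 at 1.14 ± 0.24.

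Most luminal epithelial genes fell. All 21 keratin and junction genes of the luminal epithelium were lower at 60 days, 18 of them called, with a median of -3.20 (-1.68 on TPM as deposited). As many as 18 were called each time a single library was left out, and 15 without 1-day replicates 1 and 3. Epcam, a surface protein of epithelial cells, was 312, 208, 251, 206 and 94.2 at 1 day and 1.96, 2.45, 10.3, 1.29 and 4.71 at 60 days (-5.54 ± 0.45 SE, adjusted p = 4.08e-05). The highest 60-day value, in replicate 3, was far below the lowest at 1 day. Spint1, an inhibitor of epithelial surface proteases, changed by -4.60 ± 0.40, and the tight junction genes Cldn8 and Tjp3 by -3.56 ± 0.36 and -2.68 ± 0.26. Of 13 genes of luminal progenitors 7 were lower and none higher (median -2.14). Among them, Cyp24a1, which inactivates vitamin D, was 114, 174, 73.1, 81.8 and 55.9 at 1 day and 0.0145, 0, 0.0395, 0 and 0.0879 at 60 days (-6.50 ± 0.28 SE, adjusted p = 5.02e-07). The transcription factor Sox9 was 76.4, 38.5, 74.9, 78 and 38.7 at 1 day and 0.54, 0.843, 3.14, 3.07 and 1.93 at 60 days (-4.46 ± 0.35 SE, adjusted p = 3.48e-05). Both were far apart between the times, and Cyp24a1 was at or under 0.0879 in every 60-day library. The filter alone sets the groups of Cyp24a1 apart. Basal and myoepithelial genes gave 8 of 20 lower and none higher, with a median of -1.29 (0.22 on TPM as deposited). With 1 library left out the count ran from 6 without 60-day replicate 1 to 13 without 60-day replicate 3, and it was 4 without 1-day replicates 1 and 3 and 15 without 60-day replicates 3 and 4. In this group Nrtn, a ligand of the Ret receptor, changed by -2.98 ± 0.39, P-cadherin (Cdh3) by -1.62 ± 0.29, and the laminin receptor subunit Itga6 by -1.57 ± 0.21, the last with a change of 0.03 on TPM as deposited. The nulliparous libraries held 5.68 to 64.5 scaled TPM of Epcam and 63.5 to 152 of Itga6, and both ranges reached above those at 60 days.

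The pathway that prolactin acts through showed opposite movements. Drd2 encodes the dopamine receptor that cabergoline engages. It was listed at 0 throughout the 5 groups of the series. Prlr, the prolactin receptor, was 34.5, 23, 35.2, 18.1 and 11.8 at 1 day and 3.71, 6.41, 35.3, 9.98 and 16.5 at 60 days (-0.99 ± 0.52 SE, adjusted p = 0.19). The groups overlapped, 60-day replicate 3 being as high as the highest 1-day library, and the change was positive on TPM as deposited. Stat5a was 45.7, 35.4, 45.9, 48.6 and 43.9 at 1 day and 41.3, 30.2, 27.4, 33.8 and 32 at 60 days (-0.41 ± 0.15 SE, adjusted p = 0.0722) and also overlapped, with a change of 1.16 on TPM as deposited (adjusted p = 0.00109). Prlr passed the threshold as lower without 60-day replicate 3 (-1.39, adjusted p = 0.0413), with library quality weights and without 60-day replicates 3 and 4, and Stat5a without 60-day replicate 1 (-0.49, adjusted p = 0.0483) and with library quality weights. Stat5b, its close relative, was 24.3, 25.9, 26.4, 29.3 and 31.9 at 1 day and 55.8, 44.2, 45.7, 44.1 and 39.1 at 60 days (0.71 ± 0.14 SE, adjusted p = 0.00629), higher in each 60-day library than in any 1-day library. This call was lost in the fit of all 25 libraries and without 1-day replicates 1 and 3. Socs2, an inhibitor of growth hormone and prolactin signalling and a target of Stat5, rose likewise, 12.8, 23.6, 12.9, 21.8 and 29.4 at 1 day and 70.4, 53.9, 36.7, 59.7 and 43 at 60 days (1.38 ± 0.27 SE, adjusted p = 0.0059). It too lost the call without 1-day replicates 1 and 3 (adjusted p = 0.0504). Elf5, the alveolar transcription factor downstream of the prolactin receptor, fell: 462, 278, 385, 311 and 147 at 1 day and 2.9, 5.04, 15.3, 7.94 and 8.29 at 60 days (-5.22 ± 0.40 SE, adjusted p = 2.74e-05). Igf2 was 2.75, 3.49, 9.75, 1.47 and 0.783 at 1 day and 18.9, 8.39, 31.3, 24.9 and 4.59 at 60 days (2.02 ± 0.58 SE, adjusted p = 0.0334), with overlap. Leaving out 1 library ended the call of Igf2 (6 of 10 libraries, adjusted p = 0.0786 without 1-day replicate 4). In all, 3 of 15 genes of this list were higher and 1 lower. Of 9 tested genes of hormone sensing 1 was lower, Ly6a, a surface antigen (-1.47 ± 0.36, positive on TPM as deposited), and 5 further members, Pgr, Areg, Calca, Foxa1 and Tff3, did not reach 1 TPM in 5 libraries.

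Acute phase and Stat3-linked genes of early involution were lower at 60 days, although Stat3 itself was not called over all libraries weighted alike. Stat3 was 381, 259, 339, 345 and 234 at 1 day and 250, 187, 212, 350 and 224 at 60 days (-0.36 ± 0.21 SE, adjusted p = 0.24), with overlap and a positive change on TPM as deposited, and it passed the threshold as lower with library quality weights (-0.56, adjusted p = 0.011). Of 23 tested genes linked to Stat3 and the first days of involution 12 were lower and 1 higher (median -1.23, 0.36 on TPM as deposited). Cd14, the co-receptor for bacterial lipopolysaccharide, was 924, 523, 583, 737 and 257 at 1 day and 2.9, 2.79, 14.4, 12.4 and 7.77 at 60 days (-6.18 ± 0.47 SE, adjusted p = 2.74e-05). Lbp, which delivers lipopolysaccharide to it, was 661, 253, 496, 502 and 186 at 1 day and 11.8, 10.9, 22.4, 38.2 and 14.2 at 60 days (-4.36 ± 0.42 SE, adjusted p = 1.12e-04). Both were lower in all 5 libraries at 60 days than in any at 1 day. The serum amyloid genes Saa1 and Saa2 ran from 202 to 1640 and from 130 to 1200 at 1 day and were at or under 0.367 at 60 days (-8.77 ± 0.50 and -8.33 ± 0.55). They are near-identical copies, so the share of each is uncertain. Tgfb3, a cytokine induced in the alveoli after weaning, was 147, 75.3, 93.4, 105 and 55.9 at 1 day and 6.53, 7.78, 40.2, 16.5 and 8.47 at 60 days (-2.76 ± 0.46 SE, adjusted p = 0.00258).

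Cell death and lysosomal genes moved in part. Of 27 apoptosis genes 6 were lower and 1 higher, with a median of -0.28 (1.26 on TPM as deposited). With 1 library left out the lower calls ran from 4 without 60-day replicate 2 to 9 without 60-day replicate 4 and the higher calls from 1 without 60-day replicate 1 to 5 without 60-day replicate 3. Without 60-day replicates 3 and 4 they numbered 9 and 7, with a median of 0.02. The proapoptotic Bmf was 89, 32.4, 84.1, 56.1 and 49.4 at 1 day and 15, 18.9, 19, 19.3 and 10.7 at 60 days (-1.78 ± 0.28 SE, adjusted p = 0.00215) and the pore-forming Bak1 34.7, 28.2, 31.5, 27.3 and 21.2 at 1 day and 11, 10.3, 7.76, 4.34 and 6.64 at 60 days (-1.76 ± 0.24 SE, adjusted p = 9.49e-04). The antiapoptotic Bcl2l1 fell too (-0.98 ± 0.17 SE, adjusted p = 0.00359, positive on TPM as deposited). The death ligand Tnfsf10 rose (1.06 ± 0.20 SE, adjusted p = 0.00524), each without overlap. Lysosomal genes gave 12 of 29 lower and 2 higher (median -0.46, 1.11 on TPM as deposited). The protease Ctsl was 638, 696, 627, 590 and 258 at 1 day and 56.5, 38.8, 68.3, 49.3 and 49.9 at 60 days (-3.34 ± 0.28 SE, adjusted p = 4.67e-05). The protease Ctsd, abundant in involuting glands, was 1120, 559, 658, 615 and 382 at 1 day and 164, 143, 167, 87.4 and 144 at 60 days (-2.18 ± 0.29 SE, adjusted p = 7.36e-04). Lipa, which splits lysosomal cholesteryl esters, changed by -2.13 ± 0.28 and Ctsa by -1.31 ± 0.17, the latter positive on TPM as deposited. Macrophages and epithelium both express these genes.

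Targets of p53 were lower more often than higher, 7 of 20 against 1, with a median of -0.60 (0.96 on TPM as deposited). Trp53 itself, deleted in part of the cells, was 15.4, 29, 16.8, 32.2 and 44.5 at 1 day and 43.9, 36.9, 19.6, 60.5 and 36.3 at 60 days (0.52 ± 0.35 SE, adjusted p = 0.295) and overlapped, as did Brca1, 2.15, 2.84, 2.25, 2.47 and 5.14 at 1 day and 3.36, 4.07, 1.31, 7.39 and 4.57 at 60 days (0.30 ± 0.34 SE, adjusted p = 0.541). The gene level does not check the deletion of exons. Perp, a desmosomal target of p53 and p63, changed by -3.74 ± 0.63, the stress gene Trp53inp1 from 139 to 392 scaled TPM at 1 day to 21.8 to 57.9 at 60 days (-2.72 ± 0.37 SE, adjusted p = 8.09e-04), Sesn2 by -1.66 ± 0.24 and Zmat3 by -1.20 ± 0.23 (positive on TPM as deposited). Partners of Brca1 in homologous recombination were mostly above 0, 15 of 17, with none lower and 3 called higher (1 without 60-day replicate 2 to 7 without 60-day replicate 4, and 9 without 60-day replicates 3 and 4). Xrcc2 was 2.26, 4.54, 2.62, 4.26 and 4.43 at 1 day and 10.7, 9.14, 9.11, 7.17 and 12.4 at 60 days (1.23 ± 0.23 SE, adjusted p = 0.00482), without overlap. Xrcc3 changed by 0.77 ± 0.20 SE, adjusted p = 0.0217 and Fancd2 by 0.83 ± 0.26 SE, adjusted p = 0.0464. With single libraries left out, the call was lost for Xrcc3 (2 of 10 libraries, adjusted p = 0.0655 without 1-day replicate 1) and Fancd2 (each of the 5 libraries without which it was still tested, adjusted p = 0.112 without 1-day replicate 1), and none of the 3 was called without 1-day replicates 1 and 3.

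Proliferation genes were mostly above 0, with a number of calls that depended on single libraries. Of 30 cell cycle genes 26 were above 0 and 3 were called, all higher (median 0.77). This share was near the 9.12% of all genes tested that were called higher. With 1 library left out from 2 without 1-day replicate 1 to 10 without 60-day replicate 3 were called higher, without 60-day replicates 3 and 4 as many as 20 (median 1.24), and without 1-day replicates 1 and 3 none (median 0.34). Mki67, the standard marker of cycling cells, was 0.996, 5.74, 3.48, 7.7 and 11.9 at 1 day and 14.1, 12.9, 2.04, 7.28 and 11.9 at 60 days (0.67 ± 0.57 SE, adjusted p = 0.413). Its change was -0.04 without 1-day replicates 1 and 3, the libraries low in lymphocyte genes. Mcm3, of the replicative helicase, was 3.13, 11.3, 7.64, 13.8 and 22.2 at 1 day and 45.5, 40.6, 23.5, 52.5 and 34.2 at 60 days (1.84 ± 0.42 SE, adjusted p = 0.0125). Tyms, which makes thymidylate, was 11.3, 12.6, 11.3, 12.9 and 15.2 at 1 day and 20.9, 21.5, 16.5, 25.3 and 21.3 at 60 days (0.69 ± 0.16 SE, adjusted p = 0.0132). Foxm1, a regulator of mitotic genes, changed by 1.70 ± 0.45 SE, adjusted p = 0.024. None of these 3 was called without 1-day replicates 1 and 3, and all 3 had their lowest values in those replicates. Leaving out 1 library also ended the call of Foxm1 (2 of 10 libraries, adjusted p = 0.065 without 1-day replicate 3). The part of the lymphocyte content in these values was not tested.

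The secretory pathway fell with milk. Of 26 genes of protein folding and export in the endoplasmic reticulum 18 were lower and 1 higher, with a median of -0.89 (0.68 on TPM as deposited), and 8 were lower without 1-day replicates 1 and 3. Xbp1, the transcription factor that expands the secretory apparatus, was 488, 294, 522, 397 and 228 at 1 day and 56.1, 37.8, 87.1, 70.8 and 48.5 at 60 days (-2.65 ± 0.29 SE, adjusted p = 2.17e-04). The chaperone Hspa5 was 377, 284, 413, 305 and 225 at 1 day and 107, 80.7, 99.7, 87.6 and 120 at 60 days (-1.67 ± 0.19 SE, adjusted p = 3.49e-04). Ssr2, of the translocon, was 92.9, 67.1, 94.3, 71.1 and 56.2 at 1 day and 18.9, 15.9, 20.4, 18.1 and 14.7 at 60 days (-2.04 ± 0.17 SE, adjusted p = 5.64e-05). Each was lower in all 5 libraries at 60 days, by more than the spread within either group. Sec61b changed by -1.29 ± 0.15 SE, adjusted p = 3.77e-04 and was positive on TPM as deposited.

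Ribosomal protein and oxidative phosphorylation genes were divided. Of 32 cytosolic ribosomal protein genes 10 were lower and 3 higher (median -0.31, 1.30 on TPM as deposited). Rpl23 was 296, 318, 323, 332 and 382 at 1 day and 70.7, 49.2, 28.7, 59 and 56.1 at 60 days (-2.68 ± 0.22 SE, adjusted p = 4.36e-05), Rpl37 changed by -1.89 ± 0.23, Rpl19 by -1.53 ± 0.28 and Rps27a by -1.33 ± 0.18, with Rpl19 and Rps27a positive on TPM as deposited. Ribosomal protein genes have many processed copies, so that each value is uncertain. Of 28 nuclear genes of oxidative phosphorylation 4 were lower (3 without 1-day replicate 1 to 8 without 60-day replicate 3) and 1 higher. The share of lower calls was near that over all genes. Ndufa1 was 238, 172, 194, 144 and 105 at 1 day and 33.4, 34.1, 31.1, 40.2 and 25.9 at 60 days (-2.30 ± 0.22 SE, adjusted p = 9.81e-05). Ndufa4, Uqcrb and Cox5b changed by -2.33 ± 0.42, -1.91 ± 0.34 and -2.90 ± 0.80. Cox5b, needed in every cell, was listed at 0 in 60-day replicate 4, and the calls of Cox5b (4 of 10 libraries, adjusted p = 0.071 without 1-day replicate 1) and mt-Nd6 (3 of 10 libraries, adjusted p = 0.0624 without 1-day replicate 4) were lost with single libraries left out. These are short genes, and transcript length moved with the change: the median log2 fold change was -0.49 for 613 genes of 500 to 1000 bases, 26.9% of them called lower, and 0.18 for 5508 genes over 4000 bases, 9.22% called lower. The 109 genes under 500 bases did not follow this order, with a median of -0.11 and 13.8% called lower. The part of transcript length in these lists was not tested. The mitochondrially encoded genes gave 1 of 13 higher, mt-Nd6 (1.78 ± 0.46 SE, adjusted p = 0.0215), and none lower, with mt-Co1 at 1.52 ± 0.73 and mt-Co3 at 0.61 ± 0.52, neither called. Quantile normalization gave 4.38 and 3.15 for these genes, both past the threshold.

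Antibody genes of the lactating gland fell and lymphocyte genes followed single libraries. Pigr, the epithelial receptor that moves immunoglobulin A into milk, was 710, 360, 575, 322 and 169 at 1 day and 0.229, 0.156, 0.591, 0.18 and 0.472 at 60 days (-8.18 ± 0.34 SE, adjusted p = 5.02e-07). Igha, the heavy chain of that antibody, was 924, 341, 761, 645 and 176 at 1 day and 3.82, 0.558, 10.7, 38.6 and 27.3 at 60 days (-5.61 ± 0.84 SE, adjusted p = 0.00152) and Jchain, which joins its units, 136, 68.8, 114, 110 and 84.3 at 1 day and 8.86, 2.51, 7.22, 12.6 and 38.7 at 60 days (-3.21 ± 0.53 SE, adjusted p = 0.00254). The groups were apart for each. In all, 5 of 16 genes of a plasma cell and antibody list, the epithelial Pigr among them, were lower and none higher. Of 96 tested immunoglobulin variable segments 49 (51%) were lower and none higher. T and NK cell markers were positive for 23 of 25 genes and B cell markers for 15 of 15, with medians of 1.42 and 1.44, and none was called. Cd3e, of the T cell receptor complex, was 3.54, 106, 6.9, 112 and 185 at 1 day and 370, 465, 69.2, 90.8 and 339 at 60 days, lowest in 1-day replicates 1 and 3 (2.44 ± 1.09 SE, adjusted p = 0.129). The B cell gene Cd37 had the same low pair (1.74 ± 0.89 SE, adjusted p = 0.177), as had Trbc2 (2.32 ± 1.16 SE, adjusted p = 0.17). Cr2, complement receptor 2 of B cells, was 0.87 ± 0.66 SE, adjusted p = 0.361. Without 1-day replicates 1 and 3 the median of the T and NK list was 0.01 and that of the B cell list -0.10. Genes of antigen presentation by class II molecules behaved alike, with a median of 1.02 that was 0.10 without that pair and no call in 14 genes. H2-Aa and Cd74 were 0.62 ± 0.40 SE, adjusted p = 0.276 and -0.56 ± 0.44 SE, adjusted p = 0.364, the latter positive on TPM as deposited.

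The complement genes C1qc and C1qa of macrophages were lower, while the macrophage list had a median near 0. C1qc was 39.9, 42.6, 47.3, 41.4 and 47.2 at 1 day and 10.4, 8.31, 7.81, 7.93 and 15.3 at 60 days (-2.07 ± 0.19 SE, adjusted p = 8.22e-05) and C1qa 60.6, 72.7, 79.5, 70.8 and 84.1 at 1 day and 44.2, 32.9, 22.8, 45.5 and 45 at 60 days (-0.97 ± 0.20 SE, adjusted p = 0.00898), each without overlap, although the smaller change of C1qa was positive on TPM as deposited. The Fc receptor Fcgr1 (-0.95 ± 0.30) was also called. Of 19 macrophage genes 4 were lower and none higher, with a median of -0.05 (1.32 on TPM as deposited), and 8 were above 0. Their summed scaled TPM was 307 to 699 at 1 day and 363 to 1090 at 60 days. The call of Fcgr1 (8 of 10 libraries, adjusted p = 0.109 without 1-day replicate 3) did not hold with single libraries left out. Of 12 tested neutrophil and mast cell genes 2 were lower. S100a8, a calcium-binding protein of neutrophils that keratinocytes also make, was 32.4, 18.8, 30.1, 13.8 and 5.79 at 1 day and 3.14, 0.548, 1.12, 0 and 4.67 at 60 days (-2.94 ± 0.56 SE, adjusted p = 0.00545). The chemokine Cxcl2 was at -0.89 ± 0.27 (positive on TPM as deposited). Genes of the NF-kB and tumor necrosis factor response gave 5 of 22 higher and none lower (median 0.75). With 1 library left out from 2 without 60-day replicate 1 to 11 without 60-day replicate 3 were higher, and without 60-day replicates 3 and 4 there were 10 higher and 1 lower. Among them the adhesion molecules Icam1 and Vcam1 changed by 1.73 ± 0.40 SE, adjusted p = 0.0133 and 1.29 ± 0.37 SE, adjusted p = 0.0336, Tnfaip2 by 1.11 ± 0.26 and the inhibitor Nfkbia by 0.81 ± 0.24. Icam1 and Vcam1 were again lowest in 1-day replicates 1 and 3, and none of the 22 was called without that pair. Interferon-stimulated genes went both ways, 3 higher (0 without 1-day replicate 1 to 5 without 60-day replicate 3) and 4 lower (3 without 60-day replicate 1 to 7 without 60-day replicate 4) of 25. Both shares were near those over all genes. Bst2 changed by -1.73 ± 0.21, Oas2 by -2.18 ± 0.40 and Isg15 by -1.50 ± 0.36, and Mx1 rose by 1.49 ± 0.38. With single libraries left out, the call was lost for Cxcl2 (7 of 10 libraries, adjusted p = 0.0958 without 1-day replicate 3), Vcam1 (6 of 10 libraries, adjusted p = 0.0893 without 1-day replicate 1), Nfkbia (7 of 10 libraries, adjusted p = 0.0904 without 1-day replicate 1) and Mx1 (2 of 10 libraries, adjusted p = 0.058 without 1-day replicate 3).

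Some markers of vessels rose. Of 24 endothelial and pericyte genes 22 were above 0 and 6 were called, all higher (median 0.73). Vwf, which carries clotting factor in endothelium, was 18.5, 7.56, 21.5, 7.73 and 8.37 at 1 day and 61.2, 89.6, 228, 293 and 49.4 at 60 days (3.19 ± 0.53 SE, adjusted p = 0.00263). Pecam1, of endothelial junctions, was 48, 63.4, 64.1, 53.9 and 81.6 at 1 day and 134, 109, 226, 377 and 101 at 60 days (1.43 ± 0.35 SE, adjusted p = 0.0164). Every 60-day library was above every 1-day library for both, with replicates 3 and 4 the highest. Egfl7 and Tie1 changed by 1.93 ± 0.51 and 1.53 ± 0.44. Calls were lost with single libraries left out for Pecam1 (adjusted p = 0.051 without 1-day replicate 1), Egfl7 (3 of 10 libraries, adjusted p = 0.0594 without 1-day replicate 1) and Tie1 (6 of 10 libraries, adjusted p = 0.0742 without 1-day replicate 4). Without 60-day replicates 3 and 4 the list median was 0.27, with 4 higher and 1 lower. Without 1-day replicates 1 and 3 it was 0.91, and 1 gene of the 24 was called. Pecam1, Egfl7 and Tie1 were not (adjusted p = 0.131, 0.107 and 0.107). The higher calls ran from 1 without 1-day replicate 1 to 9 without 60-day replicate 5.

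Some fibroblast and nerve genes rose, and matrix genes moved both ways in few members. Of 18 fibroblast genes 3 were higher and none lower (median 0.63): Cd34 was 27.6, 15.8, 29.6, 17.6 and 16.3 at 1 day and 64, 59.8, 165, 57.8 and 41.7 at 60 days (1.69 ± 0.35 SE, adjusted p = 0.00776), Clec3b 1.12 ± 0.35 and Pi16, of adventitial fibroblasts, 1.52 ± 0.45. The count ran from 1 without 60-day replicate 1 to 4 without 60-day replicate 4. Of 12 genes of Schwann cells and nerve 5 were higher (3 without 60-day replicate 2 to 5 without 1-day replicate 3) and 1 lower, and without 1-day replicates 1 and 3 none was higher. The myelin gene Mbp was 28.8, 31.2, 43, 41.2 and 33.1 at 1 day and 65.7, 86, 166, 164 and 65.6 at 60 days (1.49 ± 0.30 SE, adjusted p = 0.00664). The glial gene S100b changed by 2.01 ± 0.46. The member that fell was Sox10, 118, 64.5, 100, 75.5 and 40.4 at 1 day and 0.841, 2.4, 15.1, 7.53 and 2.03 at 60 days (-3.98 ± 0.56 SE, adjusted p = 0.001), a factor of Schwann cells that mammary epithelial progenitors also express. Basement membrane and elastic fiber genes gave 4 of 25 higher (1 without 1-day replicate 1 to 4 without 60-day replicate 2) and 2 lower. Fibronectin (Fn1) was 34, 25.5, 30.8, 33.4 and 28.4 at 1 day and 53.4, 63.2, 110, 36.1 and 88.3 at 60 days (1.08 ± 0.27 SE, adjusted p = 0.0181) and Nid2 changed by 1.42 ± 0.36, while the epithelial laminin chain Lama1 changed by -2.69 ± 0.42. No collagen of 20 was higher, and 2 were lower, Col4a5 (-2.24 ± 0.49) and the hemidesmosomal Col17a1 (-1.98 ± 0.52). Of 20 tested matrix proteases and their inhibitors 4 were lower and 2 higher: the inhibitor Timp1 was 45.1, 23.6, 39, 26.6 and 11.1 at 1 day and 0.408, 0.781, 0.675, 0 and 0.581 at 60 days (-4.22 ± 0.35 SE, adjusted p = 4.68e-05). The stromelysin Mmp3 was 29.2, 14.8, 27.2, 11.3 and 5.91 at 1 day and 0.0928, 0.265, 1.12, 4.8 and 1.94 at 60 days (-2.89 ± 0.53 SE, adjusted p = 0.00464). Timp2 changed by -1.47 ± 0.35 (positive on TPM as deposited) and Mmp23 by 1.14 ± 0.35. Mmp7, Mmp10 and Mmp13 did not pass the filter on low values. With single libraries left out, the call was lost for Clec3b (6 of 10 libraries, adjusted p = 0.0989 without 1-day replicate 2), Pi16 (8 of 10 libraries, adjusted p = 0.0853 without 1-day replicate 4), Nid2 (2 of 10 libraries, adjusted p = 0.0578 without 1-day replicate 1), Col17a1 (3 of 10 libraries, adjusted p = 0.0588 without 1-day replicate 1) and Mmp23 (8 of 10 libraries, adjusted p = 0.105 without 1-day replicate 1). Mbp, S100b, Fn1 and Nid2 were not called without 1-day replicates 1 and 3 (adjusted p = 0.0629, 0.0608, 0.115 and 0.127). The changes of Fn1 and Nid2 were 1.09 and 1.43 there, near those over all libraries.

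Markers of fat, muscle, skin and blood were also measured in these fragments. Adipocyte genes gave 6 of 18 lower and none higher (median -0.50, 0.67 on TPM as deposited and 0.21 without 1-day replicates 1 and 3, where none was called). The lower calls ran from 2 without 1-day replicate 1 to 8 without 60-day replicate 3. Their summed scaled TPM was 533 to 1640 at 1 day and 145 to 878 at 60 days. Cidea, described above with milk fat secretion, was also in this list and among its lower calls. Leptin (Lep) was 13.5, 13.3, 17.3, 9.87 and 6.01 at 1 day and 0.048, 0.53, 0.55, 0 and 0.0483 at 60 days (-3.35 ± 0.28 SE, adjusted p = 4.68e-05). The lipases Pnpla2 and Lipe changed by -1.81 ± 0.33 and -1.33 ± 0.26, the latter positive on TPM as deposited. Skeletal muscle markers were positive for all 25 genes, and none was called. Acta1, the actin of muscle fibers, was 730, 50.9, 141, 7.16 and 0.5 at 1 day and 408, 706, 5290, 345 and 25.5 at 60 days (3.54 ± 1.73 SE, adjusted p = 0.161). Ckm, muscle creatine kinase, was 284, 25, 64.5, 2.67 and 1.9 at 1 day and 242, 451, 3690, 244 and 9.89 at 60 days (3.53 ± 1.61 SE, adjusted p = 0.135). Leaving out 1 library gave up to 4 higher calls in this list, as without 60-day replicate 5, where Ckm passed (4.66, adjusted p = 0.0475). Acta1 and Ckm also passed with the replicate block (adjusted p = 0.0398 and 0.0448), with library quality weights and on TPM as deposited. The high library of each time, 1-day replicate 1 and 60-day replicate 3, held the highest values. The summed muscle markers were 120 to 3910 at 1 day and 214 to 22700 at 60 days. Of 19 skin keratinocyte markers only 4 passed the filter on low values, with Sbsn called lower (-1.96 ± 0.62 SE, adjusted p = 0.046). It was 14.8, 11.9, 83.1, 9.84 and 7.27 at 1 day and 3.13, 1.5, 6.94, 6.65 and 1.76 at 60 days, highest in 1-day replicate 3, and leaving out 1 library ended the call of Sbsn (7 of 10 libraries, adjusted p = 0.0963 without 60-day replicate 2). Red cell genes gave 1 of 5 higher, Hba-a2, 13.6, 9.9, 24.3, 5.34 and 10.2 at 1 day and 1600, 220, 2160, 1920 and 275 at 60 days (6.08 ± 0.70 SE, adjusted p = 3.23e-04). Its near-identical copy Hba-a1 was at 0.46 ± 0.68 SE, adjusted p = 0.654 and the beta globin gene Hbb-bs at 1.32 ± 1.02 SE, adjusted p = 0.366. Reads can be divided between globin copies, so that the value of each globin is uncertain.

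**Figure D3:**
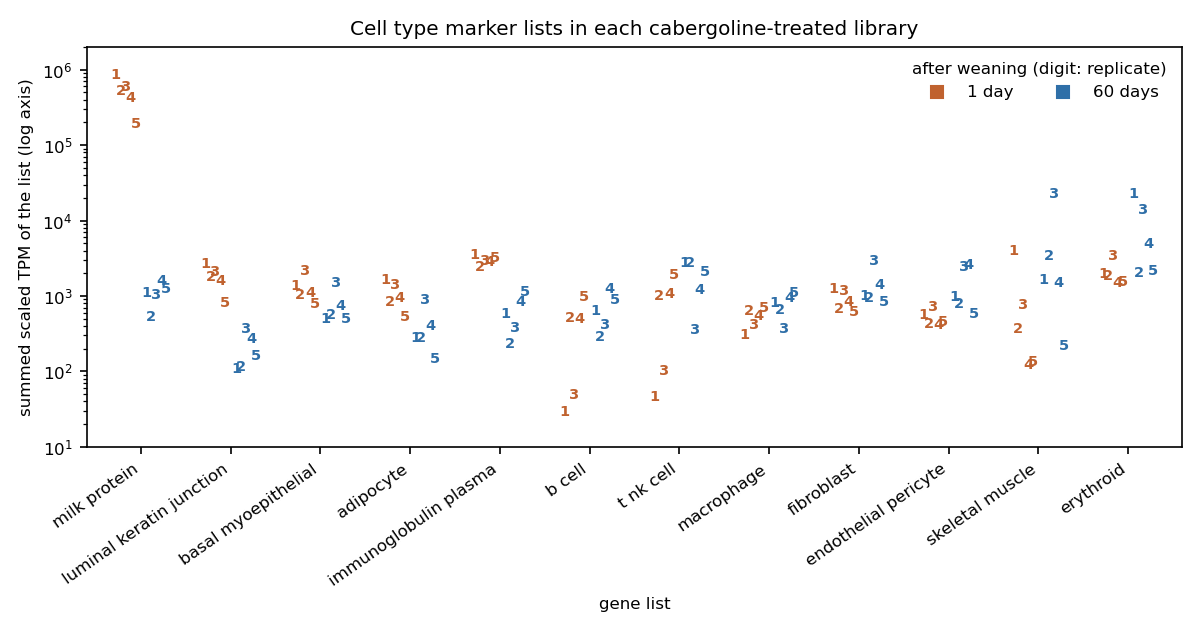
The y axis, on a log scale, is the summed scaled TPM of each marker list, and each digit is the replicate number of a cabergoline-treated library at 1 day or 60 days. Milk and luminal lists are apart between the times, while T and NK cell, B cell and muscle lists overlap, with 1-day replicates 1 and 3 lowest in the lymphocyte lists and 60-day replicate 3 highest for muscle.

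Signalling genes moved in part. Of 23 tested Wnt genes 5 were lower and 1 higher (median 0.08). Lgr4, a receptor for R-spondin in epithelial progenitors, was 214, 104, 187, 228 and 100 at 1 day and 2.02, 3.79, 14.4, 3.72 and 4.76 at 60 days (-4.79 ± 0.42 SE, adjusted p = 6.29e-05). Sfrp2, Wnt5b and Sfrp1 changed by -3.52 ± 0.65, -2.40 ± 0.38 and -2.22 ± 0.40. Of 17 tested genes of the Egf, Fgf and Hgf families 1 was lower and 1 higher (median -0.02), shares below those over all genes. Erbb3, the neuregulin receptor subunit of luminal cells, was 115, 42, 81.7, 63.7 and 28.3 at 1 day and 1.55, 3.03, 13.8, 6.22 and 4.59 at 60 days (-3.39 ± 0.49 SE, adjusted p = 0.00127). Fgfr1 changed by 1.17 ± 0.34 SE, adjusted p = 0.0344. Of 16 Notch genes 15 were above 0 and 4 were higher, with none lower (median 0.81), and the count ran from 1 without 1-day replicate 1 to 8 without 60-day replicate 5. Rbpj, the DNA-binding partner of the receptors, was 23.3, 25.1, 23.1, 24.3 and 23.9 at 1 day and 46.9, 39.7, 34.1, 38 and 43.1 at 60 days (0.72 ± 0.13 SE, adjusted p = 0.00348), with no overlap and little spread within a time. The receptors Notch1, Notch2 and Notch3 changed by 0.78 ± 0.19, 0.99 ± 0.26 and 1.23 ± 0.37. Leaving out 1 library ended the call of Fgfr1 (4 of 10 libraries, adjusted p = 0.075 without 1-day replicate 1), Notch1 (2 of 10 libraries, adjusted p = 0.0574 without 1-day replicate 1), Notch2 (2 of 10 libraries, adjusted p = 0.0576 without 1-day replicate 3) and Notch3 (6 of 10 libraries, adjusted p = 0.0824 without 1-day replicate 4), and none of the 4 Notch genes was called without 1-day replicates 1 and 3. The median of the Notch list was 0.8 there.

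Genes of the insulin-like growth factor pathway went both ways, 4 higher and 4 lower of 19. The binding protein Igfbp4 was 33.2, 49.4, 43, 45.8 and 71.1 at 1 day and 136, 102, 144, 156 and 87 at 60 days (1.36 ± 0.23 SE, adjusted p = 0.00283). The kinase Akt2 changed by 1.14 ± 0.24, Igfbp2 by -2.13 ± 0.41 and Pik3r1, the regulatory subunit of PI3 kinase, by -1.30 ± 0.20 (positive on TPM as deposited). The Tgfb and Bmp list had 3 higher and 3 lower of 23, near the shares over all genes. Smad7, an inhibitor of the pathway, was 14, 33.9, 20, 34.5 and 56.4 at 1 day and 130, 88.8, 65.9, 129 and 85 at 60 days (1.72 ± 0.35 SE, adjusted p = 0.00736), Ltbp4, which anchors latent Tgfb in the matrix, changed by 2.03 ± 0.51 and Bmp4 by 2.16 ± 0.52. Of 18 clock genes 3 were higher and 2 lower. Npas2, a partner of Arntl, was 46.9, 25.3, 42.7, 25.3 and 14.3 at 1 day and 1.38, 0.603, 2.62, 1.35 and 0.596 at 60 days (-3.74 ± 0.35 SE, adjusted p = 9.50e-05), Bhlhe41 changed by -1.98 ± 0.48, Tef by 1.37 ± 0.30 and Nr1d2 by 0.96 ± 0.28. The hour of collection is not given in the sources used here. Of 24 immediate early genes, which respond to dissociation, Dusp1 rose (1.51 ± 0.45 SE, adjusted p = 0.037) and Jund fell (-1.29 ± 0.39 SE, adjusted p = 0.0378, positive on TPM as deposited), both with overlap. Of 10 tested serotonin and dopamine genes 3 were higher and 1 lower, all at low levels: Th, tyrosine hydroxylase, was 0.483, 1.32, 0.371, 1.07 and 2.17 at 1 day and 4.18, 4.54, 3.69, 18.7 and 4.64 at 60 days (1.78 ± 0.41 SE, adjusted p = 0.0134), Maob changed by 1.10 ± 0.34 and the receptors Htr1b and Htr1d by 0.58 ± 0.18 and -1.16 ± 0.34. No dopamine receptor gene (Drd1 to Drd5) passed the filter on low values. With single libraries left out, the call was lost for Nr1d2 (6 of 10 libraries, adjusted p = 0.0865 without 1-day replicate 2), Dusp1 (7 of 10 libraries, adjusted p = 0.0844 without 1-day replicate 2), Jund (6 of 10 libraries, adjusted p = 0.0904 without 1-day replicate 1), Maob (each of the 5 libraries without which it was still tested, adjusted p = 0.09 without 1-day replicate 4), Htr1b (each of the 5 libraries without which it was still tested, adjusted p = 0.0928 without 1-day replicate 1) and Htr1d (8 of 10 libraries, adjusted p = 0.0828 without 60-day replicate 1).

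**Figure D4:**
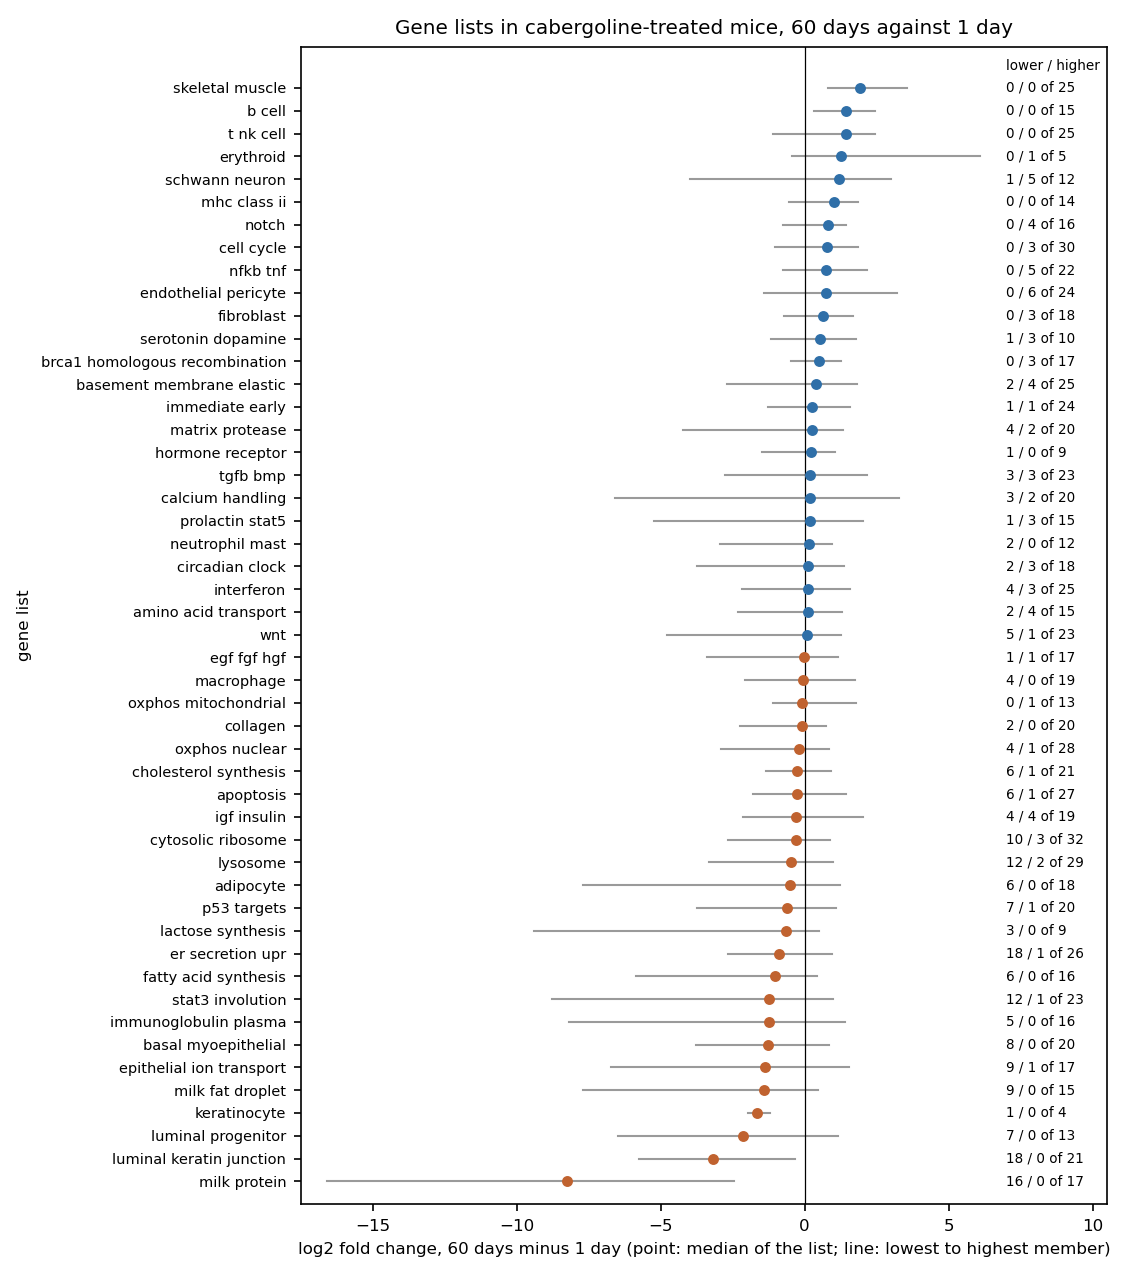
For each of 49 gene lists the x axis gives the log2 fold change at 60 days minus 1 day, with a point at the median of the tested members, a line from the lowest to the highest member, and the counts called lower and higher at the right. The milk protein list has the lowest median (-8.26) and the skeletal muscle list the highest (1.91), the latter with no gene called.

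Among called genes without overlap and at 10 TPM or more in the higher group, the largest rises included pseudogenes, a globin, a chemokine copy and vessel or nerve genes. Rps6-ps4 was 141, 112, 106, 376 and 141 at 60 days and listed at 0 in each library at 1 day, and Rpl17-ps3 was 0, 0, 0, 0.344 and 0 at 1 day and 244, 115, 251, 255 and 42.6 at 60 days (7.16 ± 0.46 SE, adjusted p = 8.13e-06). Both are processed copies of ribosomal protein genes that share sequence with their parents, so that these values are uncertain. Both reached 1 TPM at 60 days only, so that the filter alone sets their TPM apart. Ccl21a, a chemokine that draws T cells and dendritic cells to lymph vessels, has a pair of copies in the table: that on the scaffold JH584294.1 was 0, 0, 0.975, 0 and 0 at 1 day and 38.7, 13.2, 9.07, 128 and 56.6 at 60 days (4.87 ± 0.63 SE, adjusted p = 6.35e-04). The copy on chromosome 4 was not called (-0.35), with a sign that changed when single libraries were left out and on TPM as deposited (1.10). Xkrx was 39, 31.4, 23.7, 20.3 and 42.9 at 1 day and 314, 163, 879, 54500 and 181 at 60 days (4.77 ± 1.38 SE, adjusted p = 0.0334), far highest in 60-day replicate 4. Leaving out 1 library ended the call of Xkrx (4 of 10 libraries, adjusted p = 0.0753 without 1-day replicate 3) and Prx (2 of 10 libraries, adjusted p = 0.0545 without 1-day replicate 2). Cytl1, a secreted cytokine-like protein, was 1.34, 1.45, 4.87, 0.698 and 1.52 at 1 day and 8.44, 14.9, 46.5, 107 and 9.5 at 60 days (3.15 ± 0.66 SE, adjusted p = 0.00877). Fndc1, a matrix-associated protein, was 15.6, 4.07, 9.18, 2.66 and 1.51 at 1 day and 29.5, 22.5, 130, 65.3 and 17.5 at 60 days (2.77 ± 0.64 SE, adjusted p = 0.0133). Prx and Drp2, which form a complex in myelinating Schwann cells, changed together, 2.73, 1.42, 5.32, 2.63 and 0.747 at 1 day and 6.84, 10.4, 51.2, 65 and 6.97 at 60 days (2.55 ± 0.67 SE, adjusted p = 0.0225) and 2.66, 1.46, 3.91, 1.72 and 0.832 at 1 day and 4.8, 9.59, 39.3, 50.7 and 7.6 at 60 days (2.46 ± 0.61 SE, adjusted p = 0.0179), both highest in 60-day replicates 3 and 4. Grip2, a scaffold of synaptic receptors, was 14.5, 13.1, 29.8, 24.9 and 30.8 at 1 day and 108, 102, 75.5, 562 and 99.6 at 60 days (2.62 ± 0.51 SE, adjusted p = 0.00609). Scn4b, a sodium channel subunit of muscle and nerve, was 3.95, 1.63, 1.48, 1.22 and 1.65 at 1 day and 10.7, 18.5, 69.2, 10.8 and 5.01 at 60 days (2.51 ± 0.57 SE, adjusted p = 0.012), highest in 60-day replicate 3, the library richest in muscle genes. The part of muscle content in Scn4b was not tested. Nulliparous libraries, for comparison, held 119 to 242 of Rps6-ps4, 60.5 to 381 of Vwf and 59.9 to 105 of Grip2.

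The same 60-day against 1-day comparison in untreated mice, which shares no library with the treated one, gave changes of like direction and fewer calls. Of 16312 genes tested 197 were called (1.21%), 53 higher (0.325%) and 144 lower (0.883%). Untreated 1-day replicate 3 and 60-day replicate 2 went against their labels in milk transcripts, at 0.243% and 9.71% of TPM where the other libraries of their groups held 7.83 to 37.1% and 0.0453 to 0.185%. Without this pair 1500 genes were called, 562 higher and 938 lower. Of the 3415 called genes of the treated mice that were also tested in untreated mice, 3362 had the same sign there and 164 were called with the same sign, which is 164 of the 191 genes called in untreated mice and tested in both. The share with the same sign over all genes tested in both was not counted, so the 3362 have no background beside them. Across 15865 genes the log2 fold changes had a Pearson correlation of 0.87 (0.86 without the milk protein list), a description over genes, which are not independent replicates. Csn2 was -13.39 in treated and -10.11 in untreated mice, Epcam -5.54 and -4.28, Cidea -7.71 and -4.67, Pnpla2 -1.81 and -0.35, and Vwf 3.19 and 2.90. For the milk, epithelial and droplet genes named here the treated value was the more negative, but the difference was not past the threshold for any of them. The untreated values include the pair of libraries that went against their labels, and the part of that pair in the contrast was not tested.

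Whether the change with time differed with the treatment was tested as the interaction over the 20 multiparous libraries. None of 18232 genes was called by limma (0%), with 256 at an unadjusted p of 0.05. With library quality weights 2 were called, and without the untreated pair that went against its labels none was, with 234 at an unadjusted p of 0.05. A p that misses the threshold does not show that treated and untreated mice changed alike.

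**Figure D5:**
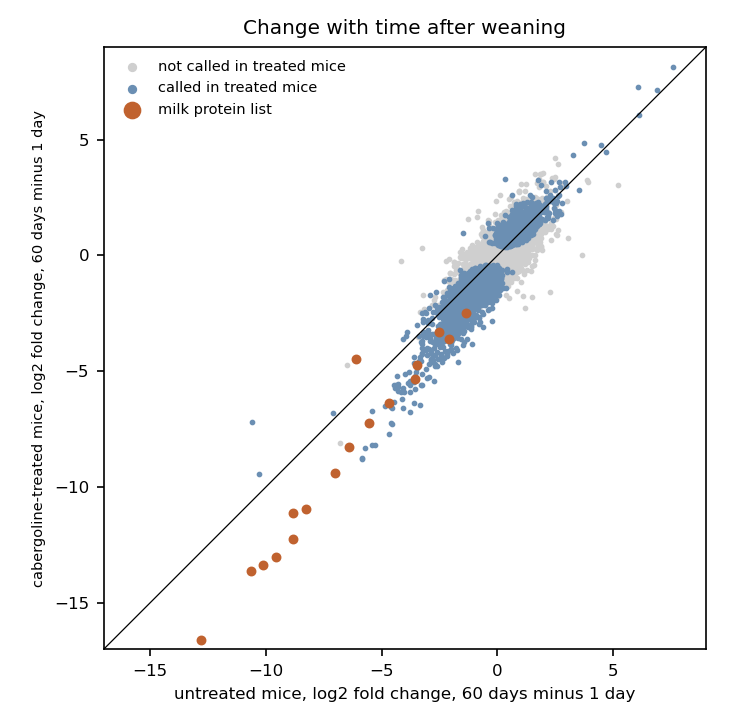
Each point is 1 of 15865 genes, with the log2 fold change at 60 days minus 1 day of untreated mice on the x axis and of cabergoline-treated mice on the y axis, and colours as given in the key. Most genes lie along a line through the origin (Pearson correlation 0.87), and the milk genes reach further down on the treated axis than on the untreated one. The untreated values include 1-day replicate 3 and 60-day replicate 2, which went against their labels in milk transcripts.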

How the data were processed

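RNA-seq of mammary organoids was deposited by the authors as 1 table of TPM per gene for 25 libraries, which the authors quantified with Salmon on GRCm38 per the submitters' processing notes. The annotation release is not given in the sources used here. The table held 34866 genes, of which 34652 were placed and named by GENCODE M21, and 0 columns of no sample. The authors' own tests used edgeR, which needs read counts. Each library sums to 999999 or 1000000 TPM, which keep no counts, so the depth is unknown and intervals that need it are left out. A value of 0 can be a failed estimate and is called listed at 0.

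Groups and replicate numbers came from the labels. For this report each library was scaled by its median ratio to the geometric mean of all libraries compared, over genes at 1 TPM or more in every library compared, and log2(scaled TPM + 1), with a pseudocount of 1, was tested with limma 3.58.1 (lmFit, eBayes with trend) in R 4.3.3 for genes at 1 TPM or more in at least 5 libraries. P-values were adjusted by Benjamini-Hochberg over all genes tested, with a threshold of 0.05, and only the groups compared entered a fit. The interaction of treatment and time was fitted over the 20 multiparous libraries. The script was tested on simulated data. Figures were drawn with Python 3.11.15 and matplotlib 3.10.9.

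Named genes were Brca1, Trp53, Prlr, Drd2, Stat3, Stat5a, Stat5b, Mki67 and Gm12895, the 12 highest and 12 lowest changes among called genes without overlap and at 10 TPM or more in the higher group (leaving out clone-named genes), up to 4 called members of each of 49 gene lists by p (or the 2 most abundant where none was called), and the 5 most abundant genes of each group. Some genes this rule names are not reported here. The comparison, members and lists were chosen with earlier results of these data known. The lists were described by counts and medians and were not tested. Alternatives changed the pseudocount, scaling, filter, fit, library weights, replicate block and libraries. Leaving out pairs of libraries was chosen after the data were examined.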

Additional observations from a re-analysis of the deposited data

Results flagged for a closer look

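Among groups of 5 libraries, 254 were examined for a library far from the others, by the gap to the nearest library divided by the range of the group, and 18 passed the limit of 0.71. Chance flags about 1 in 20 groups. Of the 18, 9 concern 60-day replicate 4. This library had the fewest genes at 1 TPM of its group (0.77) and the highest share of Xkrx (0.99; 0.71 on the log2 scale), and it was lowest for Gm12895 (0.80) and Cxcl2 (0.90) and highest for Grip2 (0.82), Rps6-ps4 (0.78), Th (0.87) and Htr1d (0.86). The remaining flag at 60 days was Cidea, highest in replicate 5 (1.00), where the other 4 libraries listed it at 0.

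At 1 day, replicate 5 was lowest for Slc39a8 (0.78), Ctsl (0.83) and Plin2 (0.74), and replicate 3 was highest for Hbb-bs (0.71), Sbsn (0.72) and the scaffold copy of Ccl21a (1.00). Replicate 1 was highest for Scn4b (0.78) and replicate 4 for Rpl17-ps3 (1.00). For Ccl21a and Rpl17-ps3 the other 4 libraries of the group listed the gene at 0.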

How the results depend on the processing

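Of 3514 genes called in treated mice, several alternatives kept the count within 1.5 times. These were other pseudocounts, other filters, quantile normalization and a rescaling without the dominant transcripts (3772). A fit of all 25 libraries (2510) and a replicate block (2898) also did. Libraries of the same number had correlations of deviations from -0.38 to 0.53. Whether they share more than a number was not tested. TPM as deposited gave 12345 (11878 higher and 467 lower), library quality weights 8649 (4826 and 3823), 60-day replicates 3 and 4 left out 6048 (2932 and 3116) and 1-day replicates 1 and 3 left out 829 (137 and 692). Single libraries left out gave 1988 to 4833, with 627 to 2308 higher and 1316 to 2525 lower. The fewest came without 1-day replicate 1 (1988) or 3 (2017), 4 (2255) or 2 (2306), and the cause was not tested. No other pair of 1-day libraries was left out. Calls lost through that pair and calls lost through a smaller group therefore cannot be told apart. Of 163 named genes called, 32 lost the call without at least 1 library (25 of 58 higher and 7 of 105 lower). A run in which a gene no longer passed the filter was not counted as a loss. Cidea, Cyp24a1, Saa1, Saa2, Lao1 and Lep, for example, were not tested without any single 1-day library. Without 1-day replicates 1 and 3 together, 81 kept the call, 70 lost it and 12 were not tested. In untreated mice the 197 calls (53 higher and 144 lower) became 12043 on TPM as deposited (11982 and 61), 1350 in the fit of all libraries (607 and 743), 8633 with quality weights (5395 and 3238), 7 with the replicate block (4 and 3), 33 higher with no filter, 1500 (562 and 938) without the pair at odds with its labels, and 38 to 525 (4 to 171 and 29 to 364) without single libraries. The interaction gave 2 calls with quality weights and 0 otherwise.

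Genes whose change turned positive on TPM as deposited were Prlr (0.51), Stat3 (1.25), Stat5a (1.16), the chromosome 4 copy of Ccl21a (1.1), Lipe (0.26), Bcl2l1 (0.6), Itga6 (0.03), Ebp (0.48), Pmvk (0.47), Sc5d (0.34), Sqle (0.11), Rpl19 (0.08), Rps27a (0.28), Sec61b (0.29), Fads1 (0.03), Slc25a1 (0.16), Ly6a (0.13), Pik3r1 (0.3), Jund (0.31), Slc35a2 (0.53), Ctsa (0.29), C1qa (0.61), Timp2 (0.12), Cd74 (1.04), Cxcl2 (0.02) and Zmat3 (0.31). Further reversals were Mki67 (-0.04) and Cr2 (-0.1) without 1-day replicates 1 and 3, Cr2 with quality weights (-0.19), and the chromosome 4 copy of Ccl21a without 60-day replicates 3 and 4 (0.2) and from -1.35 to 0.22 without single libraries.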
